A study of Mus musculus with 6 samples.

Results

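Kupffer cell identity genes are the transcripts by which the resident macrophages of the liver are recognised. The 10 genes described here, Clec4f, Timd4, Vsig4, Marco, Cd5l, Cd163, Adgre1, Csf1r, Cd68 and Folr2, were taken by symbol as known markers, with no threshold on a measured value, out of 18419 genes with a count in these livers (21362 genes are listed in the FPKM table). The list was chosen with earlier results of these data known. All 10 had enough counts to be tested. In the livers labelled AAV8-TBG-Cre, Cd5l rose 1.63-fold and Cd163 fell to 0.217 of its level with AAV8-TBG-GFP, and these were the only members past an adjusted p-value of 0.05 in edgeR. DESeq2 called Csf1r, Cd68 and Folr2 as well, while both calls were lost with limma on FPKM and without each of 5 of the 6 libraries. Over all genes DESeq2 called 748 higher and 409 lower, where edgeR called 65 and 60 of 13431. DESeq2 was fitted to 18419 genes, but not all of them received an adjusted p-value. Of the other 8 members, 7 had a higher mean with AAV8-TBG-Cre and Marco had a lower one.

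Kupffer cells sit in the liver sinusoids, where they take up bacteria, aged red cells, haemoglobin complexes and modified lipoproteins from portal blood. They are seeded before birth, renew themselves under CSF1 receptor signalling, and owe their gene programme to signals from neighbouring endothelial cells, stellate cells and hepatocytes. When resident cells are lost, as in steatohepatitis, blood monocytes enter the liver and take on parts of the same programme. Some of the 10 genes are close to specific for resident Kupffer cells in the mouse liver (Clec4f, Timd4, Vsig4), whereas others (Adgre1, Csf1r, Cd68) are made by macrophages of any origin.

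The livers came from 6 Mettl14f/f male mice, 3 given AAV8-TBG-Cre (genotype label METTL14 KO, called Cre livers) and 3 given AAV8-TBG-GFP (genotype label WT, called GFP livers). Both groups carried the floxed alleles and ate a high-fat diet (HFD) from the age of 8 weeks, received the virus after 10 weeks of HFD and were killed 8 weeks after that. The thyroxine-binding globulin (TBG) promoter is active in hepatocytes, so the vector was directed at the neighbours of the Kupffer cells and not at the Kupffer cells themselves. RNA was from whole liver, in which fewer cells of a type and less RNA per cell cannot be told apart.

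Library totals lay between 20356459 and 21010524 expected counts, and the TMM normalization factor lay between 0.913 and 1.02 in all libraries but Cre replicate 2, which stood apart at 1.18. Mettl14 itself had 124, 126 and 111 counts in the GFP livers and 104, 131 and 101 in the Cre livers. In CPM (counts scaled by library size and TMM factor) Mettl14 was at 6.30, 6.43 and 5.81 against 4.96, 5.38 and 4.86. In CPM every Cre liver thus lay below every GFP liver (exact two-sided permutation p = 0.1). In FPKM the groups overlapped, at 2.31, 2.31 and 2.01 in the GFP livers and 1.92, 2.4 and 1.82 in the Cre livers. Cre replicate 2 was the highest library in FPKM. The log2 fold change of -0.29 (standard error (SE) 0.15, adjusted p = 0.337 by edgeR's quasi-likelihood test) was small and not past the threshold. The libraries are therefore called by their labels. The library names have a short form (GFP replicates 1 and 2, Cre replicate 1) and a long form (the other 3), which the sources used here do not explain. Differences within each form are therefore given beside the members' results. Of liver cell types, hepatocyte markers were abundant in every library (Alb, the albumin gene, averaged 70992 CPM, counts scaled by library size, in the GFP livers and 62080 in the Cre livers), and each of the 10 Kupffer cell genes was detected in every library.

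RefSeq windows reaching from 250 bases before to 50 after a RefSeq transcription start were matched for 8 of the 10 members, and were searched on both strands for GAGGAA, the core of the sequence bound by PU.1, the master transcription factor of macrophages. The motif was in the windows of Marco, Cd5l, Cd68 and Vsig4, 4 of 8, against 28.3% of all 32851 windows. The members were counted per gene and the background per window, so the units differ. Folr2 had windows at different starts, none with the motif. Sequences are shown for the member that rose, the member that fell and the member most particular to mouse Kupffer cells, each 5′ to 3′ on the strand of the gene in GRCm38, with capitals marking the motif. The windows are chr3:87357631-87357930 on the plus strand (Cd5l), chr6:124304401-124304700 on the plus strand (Cd163) and chr6:83656067-83656366 on the minus strand (Clec4f). The start used for Cd163 is not the outermost start of the gene.
Cd5l: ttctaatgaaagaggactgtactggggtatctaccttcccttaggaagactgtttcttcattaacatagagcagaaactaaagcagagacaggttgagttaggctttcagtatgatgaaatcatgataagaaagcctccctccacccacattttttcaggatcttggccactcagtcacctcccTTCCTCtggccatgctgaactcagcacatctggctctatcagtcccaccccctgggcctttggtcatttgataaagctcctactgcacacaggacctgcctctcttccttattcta
Cd163: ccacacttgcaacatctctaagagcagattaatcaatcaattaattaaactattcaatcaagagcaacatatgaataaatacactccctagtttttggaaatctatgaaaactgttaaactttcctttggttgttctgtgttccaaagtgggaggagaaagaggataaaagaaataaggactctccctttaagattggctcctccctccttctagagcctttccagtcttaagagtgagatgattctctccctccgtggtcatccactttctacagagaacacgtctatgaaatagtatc
Clec4f: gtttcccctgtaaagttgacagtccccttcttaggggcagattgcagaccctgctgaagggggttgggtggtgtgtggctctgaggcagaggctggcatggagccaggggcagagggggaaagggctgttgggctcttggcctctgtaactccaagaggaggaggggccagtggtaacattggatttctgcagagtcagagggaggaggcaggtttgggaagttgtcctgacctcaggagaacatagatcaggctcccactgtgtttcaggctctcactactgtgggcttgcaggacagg
The Cd5l window holds the motif once, as its reverse complement, and the windows of Cd163 and Clec4f do not hold these letters.

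The genes lie on 8 chromosomes of the mouse genome (GRCm38, coordinates of the RefSeq genes). Clec4f is at chr6:83644542-83656116, Cd163 at chr6:124304636-124330529, Cd5l at chr3:87357881-87371074, Marco at chr1:120474538-120505024 and Folr2 at chr7:101839988-101857190. Timd4 (chr11:46810786-46844333) and Cd68 (chr11:69664213-69666170) share chromosome 11, while Adgre1 is at chr17:57358581-57483529, Csf1r at chr18:61105572-61131139 and Vsig4 at chrX:96247201-96293438.

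The order of the members was compared in FPKM, which scales fragments by transcript length. In the GFP livers, Cd5l (22.6 ± 0.684 FPKM, SD, n = 3) and Clec4f (17.7 ± 4.54) were the most abundant and their ranges overlapped. Vsig4, Csf1r and Cd68 followed at 10.2, 10.2 and 9.78 FPKM and could not be separated from each other. Folr2, Marco and Adgre1, at 5.35, 4.47 and 3.31 FPKM, formed the next overlapping group, and Timd4 (1.99) and Cd163 (1.24) were the least abundant, with overlapping ranges. In the Cre livers, Cd5l was again highest (41.8 ± 8.57 FPKM) and Cd163 again lowest (0.30 ± 0.053), but Cd68 (25.9 ± 15.04) stood next to Clec4f (24.2 ± 3.86). The ranges of the 5 most abundant members, each compared with the next in order, overlapped in the Cre livers, whereas Cd163 lay below Timd4 (2.74 ± 0.462) without overlap.

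Among the 13431 genes tested in edgeR, 0.484% were higher and 0.447% lower at an adjusted p-value under 0.05, where the members had 1 higher and 1 lower. At an unadjusted p-value under 0.05 with a fold change of at least 1.2, 12.0% of all genes were higher and 8.41% lower. By that looser rule 6 of the 10 members were higher (Vsig4, Cd5l, Adgre1, Csf1r, Cd68 and Folr2) and 1 was lower (Cd163). The groups did not overlap, in either direction, for 27.0% of all genes and for 5 of the 10 members, Cd5l, Csf1r, Cd68 and Folr2 above the controls and Cd163 below them. The median log2 fold change of the members was 0.48, against -0.0065 over all genes tested, and 8 of 10 members had a positive log2 fold change, against 49.0% of all genes. Since the list was chosen with earlier results of these data known, these shares describe the members and carry no test. The median log2 ratio of the members was 0.36 among libraries with short names and 0.73 among those with long names. Other scalings shifted the genes as a whole: 58.9% of the calls at the looser rule were higher in the TMM fit, 72.3% with upper quartile normalization and 83.7% with limma on log2(FPKM + 1), where the median of all genes was 0.11 and that of the members 0.55.

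**Figure D1:**
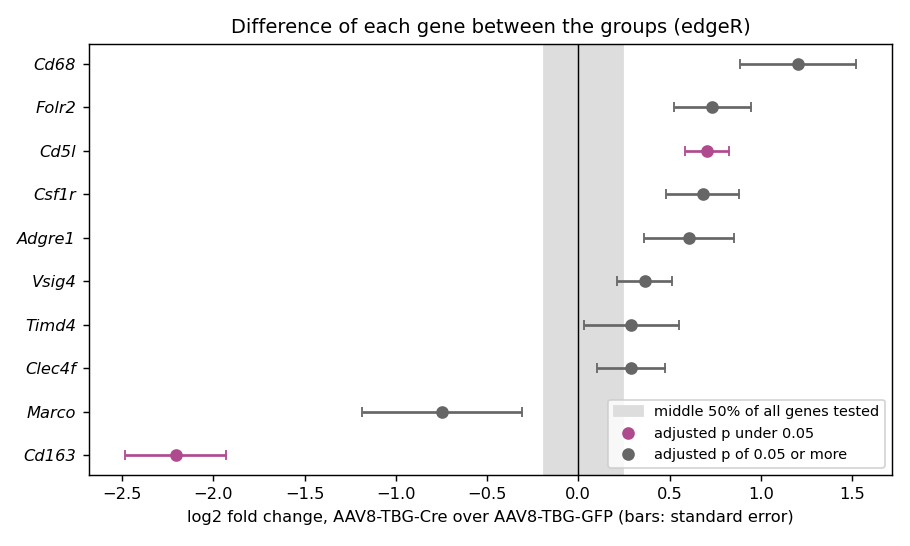
Log2 fold change (AAV8-TBG-Cre over AAV8-TBG-GFP, horizontal axis) of each of the 10 genes in edgeR, with bars of 1 standard error, over a grey band that spans the middle 50% of all genes tested. Cd163 lies far to the left at -2.21 and Marco at -0.75, while the other 8 genes lie between 0.29 and 1.205, and only Cd163 and Cd5l are coloured as past an adjusted p-value of 0.05.

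Cd163 encodes the scavenger receptor that clears haemoglobin-haptoglobin complexes, and was the member with the largest change. It was at 7.57, 5.36 and 4.82 CPM in GFP replicates 1, 2 and 3 and at 1.62, 1.07 and 1.16 CPM in Cre replicates 1, 2 and 3. The highest Cre library was far below the lowest GFP library. The means were 5.91 ± 1.46 and 1.28 ± 0.298 CPM (SD, n = 3), a log2 fold change of -2.21 (SE 0.28, adjusted p = 0.0330 by edgeR's quasi-likelihood test), or 4.61-fold lower. The exact two-sided permutation test gave p = 0.1, the smallest that 3 mice against 3 allow. Within the short-named libraries the log2 ratio was -1.99 and within the long-named ones -2.12, so the size of the decrease was alike in both. Without any one library the log2 fold change lay between -2.41 and -1.995, but the adjusted p-value stayed under 0.05 only without Cre replicate 1 (0.0210) and lay between 0.0586 and 0.118 without each of the other 5 libraries. On the FPKM values the call was lost: limma gave -0.78 on log2(FPKM + 1) (adjusted p = 0.0879) and -1.73 on log2(FPKM + 0.1) (adjusted p = 0.0704) on those scales, and the cause of the loss was not tested. In rounded expected counts the gene rested on 149, 105 and 92 counts in the GFP livers and on 34, 26 and 24 in the Cre livers. The files split these between 2 transcripts, NM_053094 and NM_001170395, and the split changed from library to library: NM_053094 took 111.45 of the counts in GFP replicate 1 and 0 in GFP replicate 3. The sum per gene was used for that reason, and no transcript is compared.

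Cd5l encodes AIM, a scavenger-like protein that macrophages secrete into the blood and that keeps them alive under lipid loading. Its level was 48.0, 46.9 and 51.8 CPM in the GFP livers and 83.1, 87.4 and 68.8 CPM in the Cre livers. The 3 control livers were nearly equal, and every Cre liver lay above them. The means were 48.9 ± 2.59 and 79.8 ± 9.74 CPM (SD, n = 3), with a log2 fold change of 0.71 (SE 0.12, adjusted p = 0.0471 by edgeR's quasi-likelihood test, exact permutation p = 0.1). The log2 ratio was 0.81 within the short-named and 0.59 within the long-named libraries. Leaving out single libraries gave 0.63 to 0.80, with an adjusted p-value of 0.0355 without Cre replicate 1 and of 0.0705 to 0.194 without each of the other 5. The call was also lost with RLE normalization (adjusted p = 0.0508), with upper quartile normalization (0.0522), with at least 10 counts in every library (0.0554) and with limma on FPKM (0.0756 to 0.146).

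**Figure D2:**
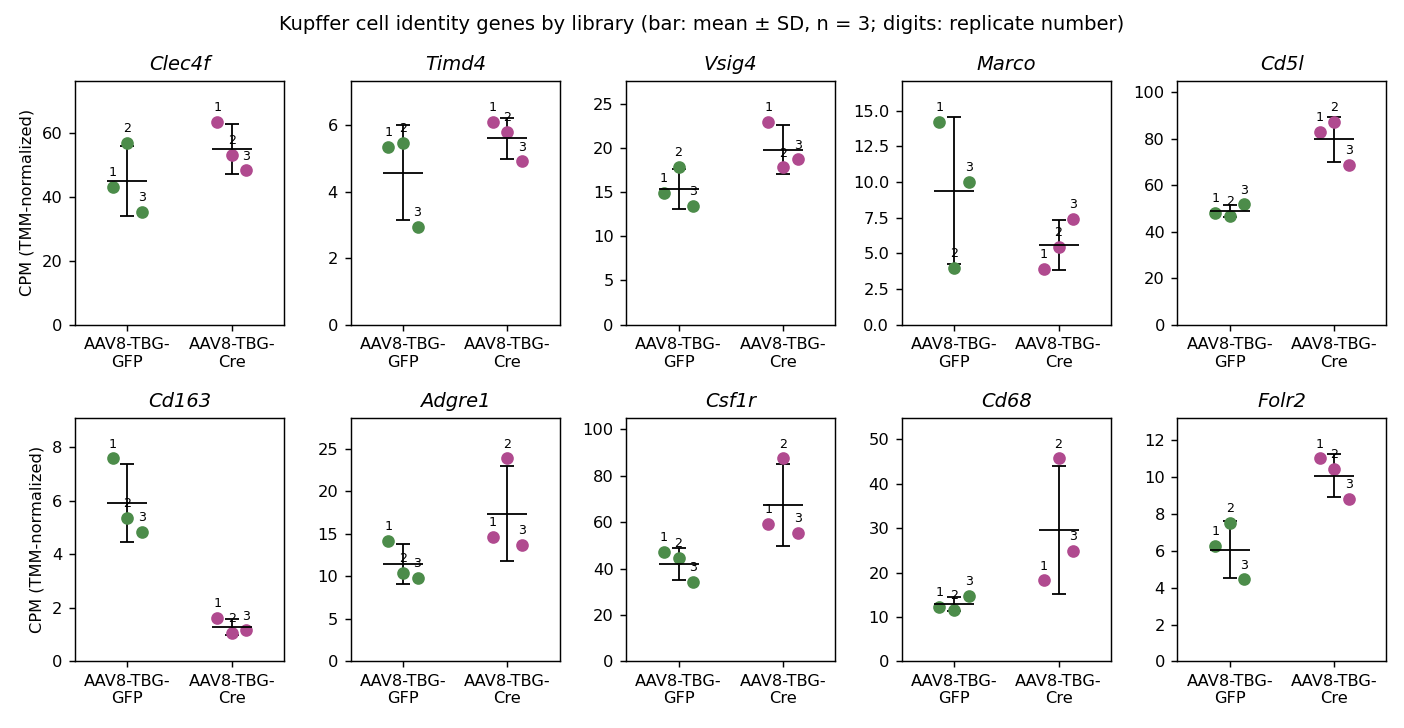
TMM-normalized CPM (vertical axes from 0) of the 10 genes in each library, with AAV8-TBG-GFP in green and AAV8-TBG-Cre in purple, replicate numbers beside the points, and bars for the mean ± SD of 3 livers. The groups are apart for Cd163 (4.82 to 7.57 against 1.07 to 1.62 CPM), Cd5l, Csf1r, Cd68 and Folr2, and AAV8-TBG-Cre replicate 2 is far above the other libraries for Cd68 at 45.7 CPM.

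Clec4f, Timd4 and Vsig4, named above as close to specific for resident Kupffer cells, had log2 fold changes of 0.29 to 0.36, none past the adjusted p-value. They do not stand for every member outside the general macrophage genes: Cd5l and Folr2 had 0.71 and 0.73, and Marco and Cd163 -0.75 and -2.21. Clec4f encodes a C-type lectin that binds galactose-ended glycans and is found on Kupffer cells in the mouse. Its level was 43.1, 56.8 and 35.2 CPM in the GFP livers and 63.6, 53.1 and 48.3 CPM in the Cre livers. The groups overlapped, since GFP replicate 2 was above 2 of the Cre libraries, and the log2 fold change of 0.29 (SE 0.19, adjusted p = 0.431 by edgeR) did not pass the test. It was 0.35 within the short-named and 0.53 within the long-named libraries, and came to 0.13 without GFP replicate 3, 0.17 without Cre replicate 1 and 0.49 without GFP replicate 2. Timd4, which encodes the phosphatidylserine receptor TIM-4 of long-resident macrophages, was at 5.34, 5.46 and 2.93 CPM against 6.11, 5.79 and 4.91 CPM. Its groups overlapped as well, and GFP replicate 3 was the only library below 4 CPM. The log2 fold change of Timd4 was 0.29 (SE 0.26, adjusted p = 0.571 by edgeR) and came to 0.043 without GFP replicate 3. Within the short-named libraries Timd4 differed by 0.18 and within the long-named ones by 0.87. Vsig4 encodes CRIg, the complement receptor with which Kupffer cells catch bacteria, and was at 14.9, 17.9 and 13.4 CPM in the GFP livers and 23.0, 17.8 and 18.7 CPM in the Cre livers. Cre replicate 2 was just under the highest control in CPM, whereas in FPKM every Cre liver (12.97 to 16.46) lay above every control (8.59 to 11.92). Vsig4 showed a log2 fold change of 0.36 (SE 0.15, adjusted p = 0.228 by edgeR, exact permutation p = 0.2), with 0.49 within the short-named and 0.44 within the long-named libraries, and came to 0.24 without Cre replicate 1. In none of these 3 genes was the mean lower in the Cre livers.

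The general macrophage genes had log2 fold changes of 0.60 to 1.205, and Cre replicate 2 had the highest level of each. Adgre1 encodes F4/80, the classical surface marker of mouse macrophages, and was at 14.2, 10.4 and 9.79 CPM in the GFP livers and 14.6, 23.9 and 13.7 CPM in the Cre livers. Only Cre replicate 2 was clearly above the controls, and the log2 fold change of 0.60 (SE 0.25, adjusted p = 0.220 by edgeR, exact permutation p = 0.2) came to 0.30 without it. Csf1r encodes the receptor for CSF1 and IL-34, on which macrophage survival depends, and was at 47.3, 44.6 and 34.3 CPM against 59.4, 87.5 and 55.3 CPM. Its groups did not overlap, and the log2 fold change of 0.68 (SE 0.20, adjusted p = 0.124 by edgeR, exact permutation p = 0.1) came to 0.44 without Cre replicate 2. Cd68 encodes a lysosomal glycoprotein of phagocytes and had the largest positive log2 fold change of the members. It was at 12.3, 11.6 and 14.7 CPM in the GFP livers and at 18.2, 45.7 and 24.9 CPM in the Cre livers, again without overlap. The Cd68 log2 fold change was 1.205 (SE 0.32, adjusted p = 0.0962 by edgeR, exact permutation p = 0.1). It came to 0.74 when Cre replicate 2 was left out and to 1.46 when Cre replicate 1 was, where its adjusted p-value was 0.0287. DESeq2 placed Csf1r (adjusted p = 0.0497), Cd68 (0.00777) and Folr2 (0.0497) past the threshold, which edgeR did not. For Adgre1, Csf1r and Cd68 the log2 ratio was 0.25, 0.37 and 0.61 within the short-named libraries and 0.94, 1.06 and 1.27 within the long-named ones, the form that Cre replicate 2 carries.

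Folr2 encodes folate receptor beta, a mark of resident-type macrophages. Its level was 6.25, 7.50 and 4.45 CPM in the GFP livers and 11.02, 10.4 and 8.81 CPM in the Cre livers. The groups did not overlap and Cre replicate 2 did not stand out, unlike in Cd68. The log2 fold change was 0.73 (SE 0.21, adjusted p = 0.118 by edgeR, exact permutation p = 0.1), with 0.68 within the short-named and 1.11 within the long-named libraries. Marco encodes a scavenger receptor for bacteria and particles. It varied most among controls, at 14.2, 3.98 and 10.0 CPM in the GFP livers against 3.91, 5.46 and 7.41 CPM in the Cre livers. The Cre range lay almost wholly inside that of the controls, and the log2 fold change of -0.75 (SE 0.44, adjusted p = 0.380 by edgeR) came to -0.32 without GFP replicate 1 and to -1.12 without GFP replicate 2. Within the short-named libraries the log2 ratio of Marco was -1.22 and within the long-named ones -0.64.

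**Figure D3:**
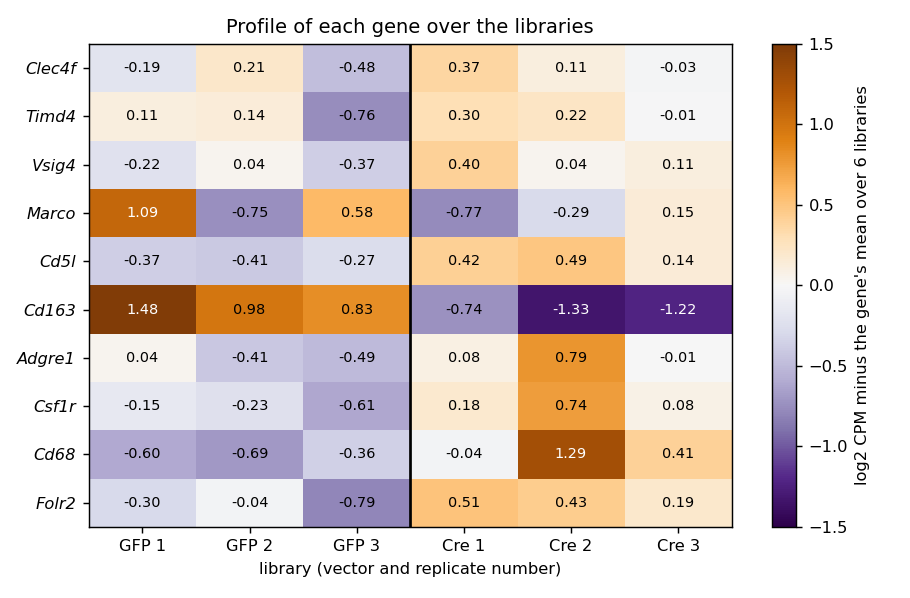
Log2 CPM of each gene (rows) in each library (columns) minus the mean of the gene over the 6 libraries, with orange above and purple below that mean. Cd163 is above its mean in the 3 AAV8-TBG-GFP livers and below it in the 3 AAV8-TBG-Cre livers, the reverse of Cd5l, while Adgre1, Csf1r and Cd68 share a peak of 0.74 to 1.29 in AAV8-TBG-Cre replicate 2.

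Across the 6 livers the members did not follow a single profile. Clec4f, Timd4, Vsig4 and Folr2 were highest in Cre replicate 1. Cd5l, Adgre1, Csf1r and Cd68 were highest in Cre replicate 2, and Marco and Cd163 in GFP replicate 1. GFP replicate 3 was the lowest library for 6 of the 10 genes. The profiles most alike, by the root mean square (RMS) difference of log2 CPM centred on the mean of each gene, were those of Clec4f and Vsig4 (0.104) and of Adgre1 and Csf1r (0.131), and the least alike were those of Cd163 and Cd68 (1.76). The libraries share the vector groups, so these values describe the livers and carry no test. Of 12356 genes outside the list with a mean of at least 1 CPM, those nearest to the mean profile of the members were Vamp3 (RMS 0.0366), Rfx1 (0.0480), Agps (0.0497), Snx1 (0.0565) and Pfdn4 (0.0583). Since the members disagree, that mean profile is flat and its neighbours have log2 fold changes of only 0.15 to 0.23. The genes nearest to Cd163 alone, looked up after its values were seen, were Cyp46a1 (RMS 0.329), Map3k15 (0.346) and Syt3 (0.350), which had log2 fold changes of -2.36, -1.78 and -2.07.

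Whether the members moved unequally within a liver was asked by dividing the FPKM of each by that of Adgre1 in the same library. Cd163 was at 0.389, 0.375 and 0.355 of the Adgre1 level in the GFP livers and at 0.0791, 0.0326 and 0.0630 of it in the Cre livers. The 3 control livers were nearly equal in this ratio, and the groups were far apart. The difference in the log2 ratio was -2.77 (exact two-sided permutation p = 0.1, adjusted p = 0.6 over the 9 ratios, where 0.1 is the smallest unadjusted p possible). No other ratio had groups without overlap. Marco differed by -1.19 (p = 0.2), Cd68 by 0.52 (p = 0.2) and the other 6 by -0.27 to 0.18 (p = 0.5 to 0.8, exact permutation tests). For Csf1r the ratio was 2.78 to 3.59 in the GFP livers and 3.06 to 3.40 in the Cre livers, so the level of Csf1r followed that of Adgre1 in every liver.

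**Figure D4:**
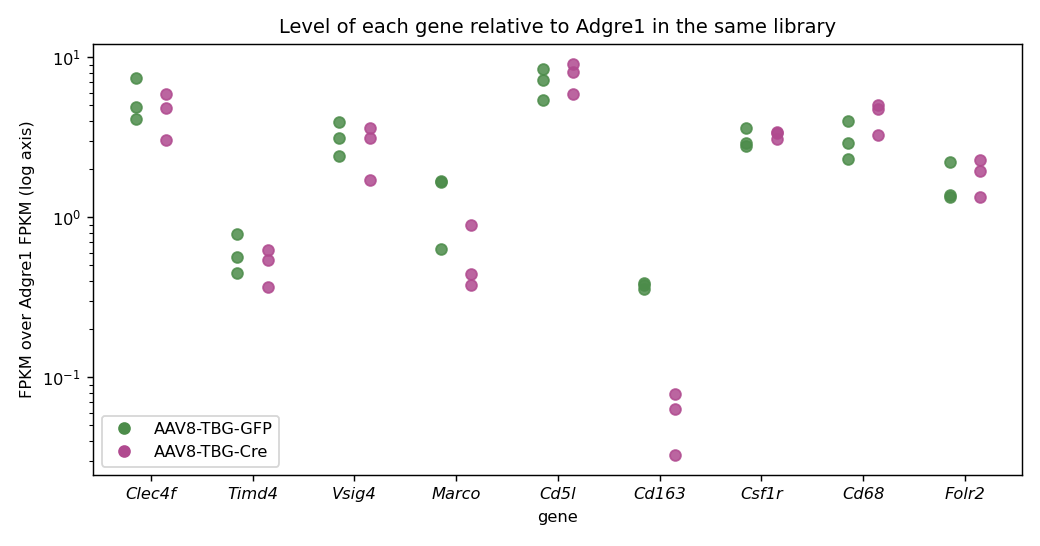
FPKM of each of the other 9 genes divided by the FPKM of Adgre1 in the same library (log axis), with 3 AAV8-TBG-GFP livers in green and 3 AAV8-TBG-Cre livers in purple. The groups overlap for 8 genes and are apart for Cd163, at 0.355 to 0.389 against 0.0326 to 0.0791.

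Other genes enriched in Kupffer cells, a list of 12, had a median log2 fold change of 0.59, with 10 of 12 positive. By edgeR's adjusted p-value 0 of 12 passed, at the unadjusted threshold 6 were higher and 0 lower, and DESeq2 called 4 higher while limma on log2(FPKM + 1) called 0. The smallest p-values belonged to complement components that macrophages make. C1qa was at 45.0, 44.8 and 40.5 CPM in the GFP livers and 64.0, 89.5 and 66.1 CPM in the Cre livers (log2 fold change 0.75, SE 0.15, adjusted p = 0.0595 by edgeR). C1qb was at 45.5, 40.9 and 39.6 CPM against 68.8, 112.7 and 70.5 CPM (log2 fold change 1.00, SE 0.20, adjusted p = 0.0611 by edgeR). In both genes every Cre liver lay above every control.

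Of 11 transcription factors that build or hold Kupffer cell identity, 0 passed the adjusted p-value in edgeR, 3 were higher and 0 lower at the unadjusted threshold, DESeq2 called 2 and limma 0. The 3 were Id1 (log2 fold change 1.12, adjusted p = 0.106), an inhibitor of helix-loop-helix factors, Irf8 (0.90, adjusted p = 0.0757), a factor of the monocyte and macrophage lineage, and Spi1 (0.75, adjusted p = 0.133), which encodes PU.1. Irf8 was at 6.56, 6.63 and 6.65 CPM in the control livers and 9.59, 16.1 and 11.2 CPM in the Cre livers. The factors most tied to Kupffer cells in particular gave other values. Nr1h3, which encodes LXR alpha, showed a log2 fold change of -0.18 (adjusted p = 0.432), Spic, a factor of red pulp and iron-recycling macrophages, 0.45 (adjusted p = 0.511), and Id3 0.69 (adjusted p = 0.412). Nr1h3 is also made by hepatocytes, which form most of the tissue. The median of the list was 0.42, and 0.15 without Cre replicate 2.

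Signals that feed Kupffer cells, a list of 9, held no member past either threshold in edgeR, and DESeq2 and limma each called 0. The ligands of Csf1r, Csf1 (log2 fold change 0.22, adjusted p = 0.578) and Il34 (0.46, adjusted p = 0.537), did not pass the test. Gdf2 and Bmp10, which encode ligands of the ALK1 receptor, showed log2 fold changes of -0.12 and -0.53 (adjusted p = 0.815 and 0.633), and Dll4, the endothelial Notch ligand, 0.08 (adjusted p = 0.914). Hp, which encodes the haptoglobin that carries haemoglobin to CD163, showed a log2 fold change of -0.30 (SE 0.35, adjusted p = 0.669 by edgeR). C3, the source of the complement fragments that Vsig4 binds, had 0.13 (SE 0.27, adjusted p = 0.829). Tgfb1 (0.25) and Gas6 (0.47), a bridge between dying cells and the receptors Mertk and Axl, had adjusted p-values of 0.506 and 0.481.

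Of 10 receptors for clearance of debris and lipoproteins, 0 passed the adjusted p-value in edgeR, 4 were higher and 0 lower at the unadjusted threshold, and DESeq2 called 3 and limma 0. Fcgr1, a high-affinity receptor for IgG, showed a log2 fold change of 1.21 (SE 0.27, adjusted p = 0.0701), and Clec7a, which encodes the beta-glucan receptor dectin-1, had 1.90 (SE 0.47, adjusted p = 0.0854). Clec7a was at 6.20, 5.20 and 9.004 CPM in the controls and at 11.2, 43.3 and 21.2 CPM in the Cre livers. The list's median of 0.28 came to 0.068 without Cre replicate 2.

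Genes common to myeloid cells, Kupffer cells included, and markers of other myeloid cells had higher summed levels in the same livers. All 11 genes common to myeloid cells were higher at the unadjusted threshold, 2 of them past the adjusted p-value, namely Cybb (a subunit of the phagocyte NADPH oxidase, log2 fold change 1.23, adjusted p = 0.0396) and Tyrobp (the adaptor DAP12, 1.22, adjusted p = 0.0444). Their summed level was 246 to 279 CPM in the GFP livers and 430 to 739 CPM in the Cre livers, where the summed level of the 10 members was 181 to 213 and 252 to 338 CPM. All 10 markers of lipid-associated macrophages, the kind that gathers around lipid-laden hepatocytes, were higher at the unadjusted threshold, with summed levels of 84.1 to 162 and 457 to 887 CPM. Past the adjusted p-value were Lpl (2.66, adjusted p = 0.0363), a lipase, and Spp1 (2.28, adjusted p = 0.0444), which encodes osteopontin and is also made by bile duct cells. Spp1 and Lpl made up most of that summed level. Spp1 was at 38.0 to 89.0 CPM in the GFP livers and 219 to 457 CPM in the Cre livers. Lpl was at 12.7 to 26.3 CPM in the GFP livers and 81.8 to 181 CPM in the Cre livers. Of the 7 monocyte genes tested, 0 passed the adjusted p-value in edgeR and 3 were higher at the unadjusted threshold, DESeq2 called 2 and limma 0, and Cx3cr1 (1.74, adjusted p = 0.0858) and Ccr2 (1.46, adjusted p = 0.102) led them. The summed level of the 8 monocyte genes was 10.0 to 14.0 CPM in the GFP livers and 18.3 to 33.9 CPM in the Cre livers. DESeq2 called 9 of the 11 myeloid and 9 of the 10 lipid-associated genes and limma 0 in both lists, and in edgeR the myeloid and lipid-associated calls were lost without each library other than Cre replicate 1. The part of other myeloid cells in the members' values was not tested. Without Cre replicate 2 the medians were 0.67 for the myeloid list, 1.39 for the lipid-associated list and 0.37 for the members, and without GFP replicate 1 the monocyte median of 0.52 came to 0.86.

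Lists for the remaining liver cells gave differing directions. All 9 sinusoidal endothelial genes had a negative log2 fold change (median -0.32), 0 past the adjusted p-value in edgeR, DESeq2 or limma, and 1 lower at the unadjusted threshold (Stab2, a hyaluronan scavenger receptor, -0.32, adjusted p = 0.135). Their summed level overlapped between groups (180 to 298 and 188 to 220 CPM). All 6 cholangiocyte genes were higher at the unadjusted threshold (median 2.59), 3 of them past the adjusted p-value, namely Cldn4 (adjusted p = 0.0409), Sox9 (0.0454) and Tspan8 (0.0460), at summed levels of 12.4 to 15.5 and 38.7 to 96.8 CPM. DESeq2 called 6 of them and limma 0. Of 5 neutrophil genes tested, 3 were higher and 1 lower at the unadjusted threshold, S100a8 (log2 fold change 2.10, adjusted p = 0.0409) was past the adjusted p-value, DESeq2 called 2 and limma 1. The gene in the lower direction, named after its values were seen, was Ly6g (-0.52, adjusted p = 0.177). The cholangiocyte and neutrophil calls of edgeR were lost without each library other than Cre replicate 1. The summed neutrophil levels were 15.04 to 15.8 and 21.1 to 21.9 CPM. Stellate cell genes (median 0.038, 2 of 9 higher and 2 lower at the unadjusted threshold), hepatocyte genes (median -0.22, 1 of 8 higher and 2 lower) and dendritic cell genes (median 0.76, 2 of 6 higher) had 0 past the adjusted p-value in edgeR. DESeq2 called 3 stellate, 3 hepatocyte and 0 dendritic cell genes, and limma 0 in each list. Only 2 of 8 T and NK cell genes, with a median of 1.09, and 1 B cell gene, at 1.18, had counts enough to be tested. Requiring 10 counts in every library, with fewer genes tested, left 0 myeloid, 0 cholangiocyte and 0 neutrophil calls in edgeR, and the 3 dendritic cell genes still tested had a median of 0.12. Cldn4 and S100a8 were no longer tested there, and their calls rest on few control counts. Cldn4 had 1, 2 and 1 counts in the GFP livers and 31, 194 and 51 in the Cre livers. S100a8 had 5, 6 and 5 counts in the GFP livers and 24, 28 and 27 in the Cre livers. The 5 erythroid genes had a median of -0.00067, 0 calls at either threshold by edgeR, and 0 by the adjusted p-value of DESeq2 and limma. Without Cre replicate 2 the medians came to -0.58 for erythroid, 0.46 for dendritic, 0.52 for T and NK, 0.55 for neutrophil (0.97 with all libraries) and -0.059 for hepatocyte genes. The hepatocyte median was -0.13 and the sinusoidal endothelial one -0.21 without GFP replicate 1, the sinusoidal one was -0.54 without GFP replicate 3, and the stellate cell median ranged from -0.11 to 0.15 when single libraries were left out.

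**Figure D5:**
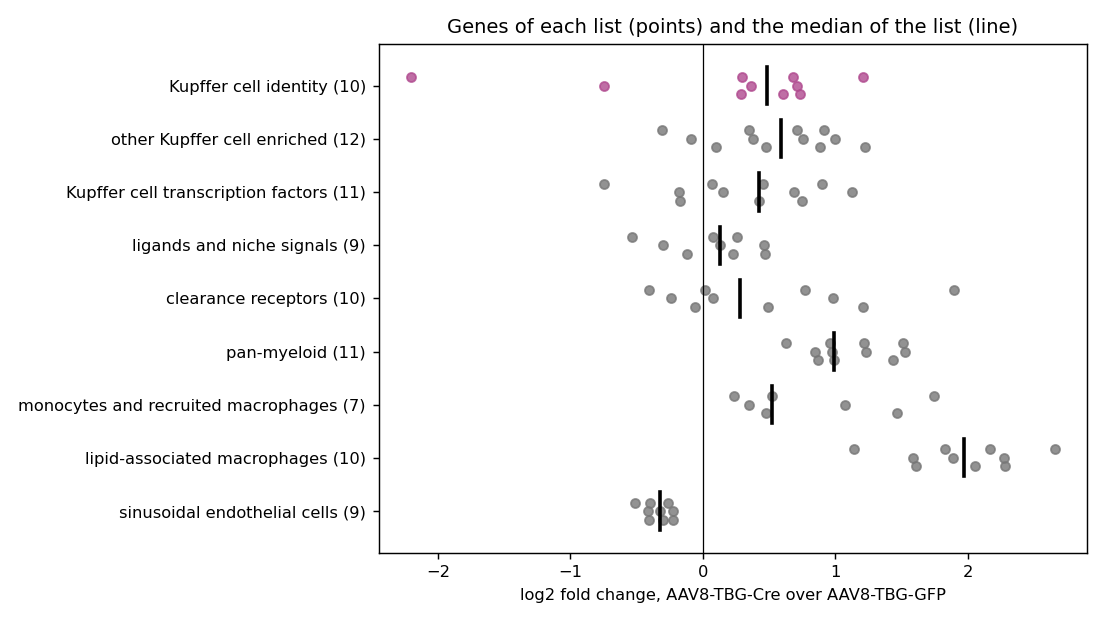
Log2 fold change (AAV8-TBG-Cre over AAV8-TBG-GFP) of each gene of 9 lists, with the number tested in brackets, points for genes and a black line for the median of each list. Medians run from -0.32 for sinusoidal endothelial genes through 0.48 for the Kupffer cell identity genes to 1.97 for lipid-associated macrophages, and Cd163 is the point farthest to the left.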

How the data were processed

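Liver RNA of 6 mice was sequenced by BGI on a DNBseq platform after oligo dT selection or rRNA depletion. The authors deposited, per library, an expected count and an FPKM per transcript, and a table of FPKM per gene. Expected counts divide fragments shared between transcripts, are not normalized and need not be whole, and 44.7% to 45.9% of them were, to within 0.005. FPKM scales fragments by transcript length and mapped fragments. The submitters' processing notes name HISAT2, Bowtie2, RSEM and the build mm10 without versions, whereas STAR, HTSeq and DESeq2 stand in the published methods. The values have the form RSEM writes.

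Samples were grouped by the vector in their titles, and libraries were taken as separate mice. Replicates of a group differed by more than sampling noise (smallest chi-square per gene 27.0). Expected counts were summed per NCBI gene ID and rounded. Groups were compared with edgeR 4.0.16 (R 4.3.3) by its quasi-likelihood test, after TMM and filterByExpr and with no covariate, and p-values were adjusted by Benjamini-Hochberg over all 13431 genes tested. CPM values are TMM-normalized. Single values were also compared by exact two-sided permutation tests, which cannot go below 0.1 with 3 mice per group. Ratios to Adgre1 used FPKM. Alternatives were DESeq2 1.42.0, limma 3.58.1 on log2(FPKM + 1) and log2(FPKM + 0.1) for genes of at least 0.5 FPKM in at least 3 libraries, the former also without that filter, RLE and upper quartile normalization, keeping every gene with a count or those with 10 counts or more in each library, a replicate block, name form as a covariate, a 1.5-fold threshold, and omission of each library in turn. The steps were tested on simulated data.

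The members and gene lists were chosen with earlier results of these data known. Named genes are all members, from the other lists those with an adjusted p-value under 0.05 and the pair with the smallest p-values, any transcription factor or niche signal, the 5 genes nearest to the mean member profile, and Mettl14. Alb, Ly6g and the genes nearest to Cd163 were named outside this rule, after their values were seen. Start-site windows and positions are from RefSeq on GRCm38.p6, the same build as mm10, with no window matched for Adgre1 and Csf1r. Whether counting used strand is not given in the sources used here.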

Additional observations from a re-analysis of the deposited data

How the results depend on the processing

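Every member kept the sign of its log2 fold change in all 16 other fits, and of 160 values for single members 135 kept their side of the adjusted threshold, 21 lost the call and 4 gained it. The number of members past the adjusted p-value, 2 of 10, was 5 with DESeq2, 1 with RLE normalization, with upper quartile normalization and with at least 10 counts in every library, and 0 with limma on log2(FPKM + 1), on log2(FPKM + 0.1), on log2(FPKM + 1) without a filter, and with the replicate block. It ranged from 0 to 3 when single libraries were left out: 3 without Cre replicate 1, and 0 without each of the others (Cre replicates 2 and 3, GFP replicates 1, 2 and 3), where 5 to 8 members were past the unadjusted threshold. With limma 6 to 7 members were past the unadjusted threshold, and with the block 5. The number at the unadjusted threshold, 7, stayed between 5 and 8 throughout. The median log2 fold change of 0.48 was 0.63 with limma on log2(FPKM + 0.1), where the median of all genes was 0.14, and 0.37 to 0.57 when single libraries were left out.

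Deviations of same-numbered libraries correlated at -0.014, -0.24 and 0.19. GFP replicate 3 was nearest to Cre replicate 3, but GFP replicate 1 was nearest to Cre replicate 2 (0.16) and GFP replicate 2 to Cre replicate 1 (0.28). The numbers were therefore not taken to pair mice. With the replicate block Cd163 had an adjusted p-value of 0.0661 and Cd5l of 0.117, and the calls over all genes went from 65 higher and 60 lower to 1 and 6. Over all genes, 748 were higher and 409 lower with DESeq2, 235 and 137 without a filter, 94 and 120 with name form as a covariate, 28 and 48 with at least 10 counts in every library, 31 and 35 with upper quartile normalization, 10 and 12 with limma on log2(FPKM + 1), 576 and 352 without Cre replicate 1, and 0 in both directions without Cre replicate 2 (1108 and 791 at the unadjusted threshold) or GFP replicate 2 (1262 and 817). The cause of these shifts was not tested. Precision for Cd163 is limited by 24 to 34 counts per AAV8-TBG-Cre library.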
